A study of Mus musculus with 12 samples.

Results

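Low oxygen switches on a shared set of genes in most mammalian cells, and 10 of them that lie outside the glycolytic pathway were followed here in 2 mouse islet tumour lines treated with the small molecule GW8510. The genes are Egln1, Egln3, Kdm3a, P4ha1, Bhlhe40, Mxi1, Vegfa, Ndrg1, Higd1a and Ak4. They were read by 24 of the 22690 probe sets of the array and make up 10 of the 12255 genes tested. The set was drawn up as genes widely described as hypoxia-induced, and was in part selected on its array intensities in αTC1, where most of the genes were lower with GW8510 while Egln3 and Ak4 were higher. For that reason their levels in αTC1 are given below as a description with no test, and only the response in βTC3 was tested.

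The oxygen response turns on the hypoxia-inducible factors (HIFs), pairs of an oxygen-regulated α subunit (Hif1a or Epas1) and the stable partner Arnt. With oxygen present, prolyl hydroxylases of the Egln family modify the α subunit, which is then bound by Vhl and degraded. Without oxygen the α subunit accumulates and the pair binds DNA at a short core motif near its target genes. Several targets, Egln1 and Egln3 among them, encode parts of the same oxygen-sensing system. Many of these genes also answer to other signals, and in islet cells the pathway is known for shifting glucose use away from the mitochondria.

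αTC1 and βTC3 are mouse lines from glucagon-producing and insulin-producing islet tumours, which arose in mice that carried the SV40 large T antigen under the glucagon and the insulin promoter. In each line, cultures received 3.3 µM GW8510, a putative inhibitor of the kinase CDK2, or the vehicle alone (0.1% DMSO), and RNA was taken on day 5. In both lines 1 label field names the compound of treated replicates 2 and 3 GW8511 and GW8512, while the titles and the compound field give GW8510 for all, which was followed here. This gave 4 groups of 3 biological replicates, each on 1 Affymetrix mouse expression array. Both are established lines and every group carries the large T antigen, so the series holds no normal islet cell, and no oxygen measurement or low-oxygen culture is among the samples.

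Array values were linear intensities between 20 and 20000, and the log2 was taken for every fold change. Median intensity was 173.7 to 182.0 on 11 arrays and 199.9 on βTC3 GW8510 replicate 3, and the lowest correlation between arrays of a group was 0.994. Gcg was at the upper bound on every αTC1 array but also averaged 6420 in βTC3 with DMSO and 12041 with GW8510. Ins2 and Iapp were at the upper bound on every βTC3 array, against means of 96.8 and 140 in αTC1 with DMSO and 153 and 382 with GW8510. The beta cell gene Pdx1 likewise went from 70.8 to 374 in αTC1, and the glucose carrier gene Slc2a2 from 87.5 to 3037 in βTC3. Markers did not all move in 1 direction. In βTC3 Pdx1 went from 3276 to 2851, Nkx6-1 from 1042 to 869 and G6pc2 from 9799 to 11203. In αTC1 Nkx6-1 went from 423 to 375, G6pc2 from 1629 to 1827 and Slc2a2 from 23.9 to 22.4. Of the alpha cell genes in αTC1, Irx1 went from 2084 to 1213 and Irx2 from 1881 to 1377. Pou3f4 went from 520 to 977 there and Ttr from 8351 to 19884, while Ttr was at the upper bound in βTC3. In βTC3 the delta cell hormone gene Sst was likewise high, at 17819 with DMSO and at the upper bound with GW8510. Group means of the endothelial markers Pecam1 and Cdh5 stayed between 27.0 and 44.3, and the leukocyte gene Ptprc did not exceed 21.2. The other leukocyte gene, Cd74, went from 136 to 199.7 in αTC1 and from 129 to 158 in βTC3, and the fibroblast gene Col1a2 from 157 to 292 in βTC3. The part that these marker shifts have in the results below was not tested. In RNA from whole cultures, fewer cells of a kind and less RNA per cell cannot be told apart.

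The stretches just upstream of the start sites of 4 of these genes are shown because the genes cover the patterns described below: Egln1 and P4ha1 with opposite readings in the lines, Egln3 with higher readings in both, and Higd1a with a smaller gap between the lines after treatment. Each is the 250 bases before the annotated start (RefSeq, GRCm38.p6), read 5′ to 3′ on the strand of the gene. Capitals mark the HIF core motif, searched as ACGTG or GCGTG on both strands, so that it also appears as CACGT or CACGC. The Egln1 stretch is chr8:124949255-124949504 (minus strand), that of Egln3 is chr12:54203875-54204124 (minus), that of Higd1a is chr9:121857797-121858046 (minus) and that of P4ha1 is chr10:59323046-59323295 (plus).
Egln1: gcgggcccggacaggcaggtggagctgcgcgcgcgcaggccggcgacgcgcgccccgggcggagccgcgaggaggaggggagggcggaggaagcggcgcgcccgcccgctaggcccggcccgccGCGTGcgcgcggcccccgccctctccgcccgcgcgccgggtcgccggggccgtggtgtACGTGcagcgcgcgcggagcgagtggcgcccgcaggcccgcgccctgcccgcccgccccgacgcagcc
Egln3: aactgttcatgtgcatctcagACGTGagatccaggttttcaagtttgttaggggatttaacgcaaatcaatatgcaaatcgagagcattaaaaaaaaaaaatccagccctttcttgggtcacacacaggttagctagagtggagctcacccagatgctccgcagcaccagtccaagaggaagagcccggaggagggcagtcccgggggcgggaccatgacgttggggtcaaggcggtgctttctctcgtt
Higd1a: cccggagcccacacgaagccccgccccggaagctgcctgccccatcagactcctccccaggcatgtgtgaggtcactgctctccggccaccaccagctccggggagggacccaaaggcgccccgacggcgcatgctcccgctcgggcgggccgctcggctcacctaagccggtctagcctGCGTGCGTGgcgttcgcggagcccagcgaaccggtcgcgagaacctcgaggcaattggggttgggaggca
P4ha1: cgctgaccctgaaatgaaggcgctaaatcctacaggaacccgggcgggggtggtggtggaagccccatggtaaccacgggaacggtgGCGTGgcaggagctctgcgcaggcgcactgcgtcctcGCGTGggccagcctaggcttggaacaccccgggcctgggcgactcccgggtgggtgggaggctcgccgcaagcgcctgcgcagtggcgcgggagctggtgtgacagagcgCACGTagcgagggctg

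Counted from the start site, the matches in the Egln1 stretch begin at −126 and −68. Egln3 has 1 match, which begins at −229. Higd1a has a pair that overlap, at −70 and −66, and P4ha1 has 3, at −163, −126 and −16. RefSeq start sites were at hand for 8 of the 10 genes, all but Bhlhe40 and Ndrg1. Among their 16 promoters 12 held a match (75%), as did at least 1 promoter of each of the 8 genes. Over all genes tested on the arrays, 50.9% of 12449 promoters held one, and 56.0% of genes had at least 1 such promoter. Some of these promoters overlap, as 3 of the 4 of Ak4 do. A match is a description of the letters and not a binding site, and Egln1 and Egln3 hold matches although their readings in αTC1 go in opposite directions.

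In αTC1, 8 of the 10 genes had lower intensity on all 3 GW8510 arrays than on any DMSO array, and Egln3 and Ak4 were higher on all 3. Over all genes, 25.5% lay entirely lower and 26.0% entirely higher in αTC1, and since the αTC1 values helped to choose the genes, nothing is read from that difference. In βTC3 the picture was another one: GW8510 raised 6 of the 10 genes (Egln3, Kdm3a, P4ha1, Bhlhe40, Ndrg1 and Higd1a), lowered 1 (Vegfa), and left 3 that did not pass the test (Egln1, Mxi1 and Ak4). Calls are from limma at a Benjamini-Hochberg adjusted p under 0.05 over all genes, by which 19.7% of genes were called higher and 14.3% lower in βTC3. The 6 called genes rose by 1.15-fold to 1.85-fold. By separation alone, 9 genes lay entirely higher and 1 entirely lower on the treated βTC3 arrays, where 28.4% and 17.6% of all genes did. The median log2 fold change of the 10 genes was −0.80 in αTC1 and 0.33 in βTC3, beside 0.03 and 0.07 over all genes.

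**Figure D1:**
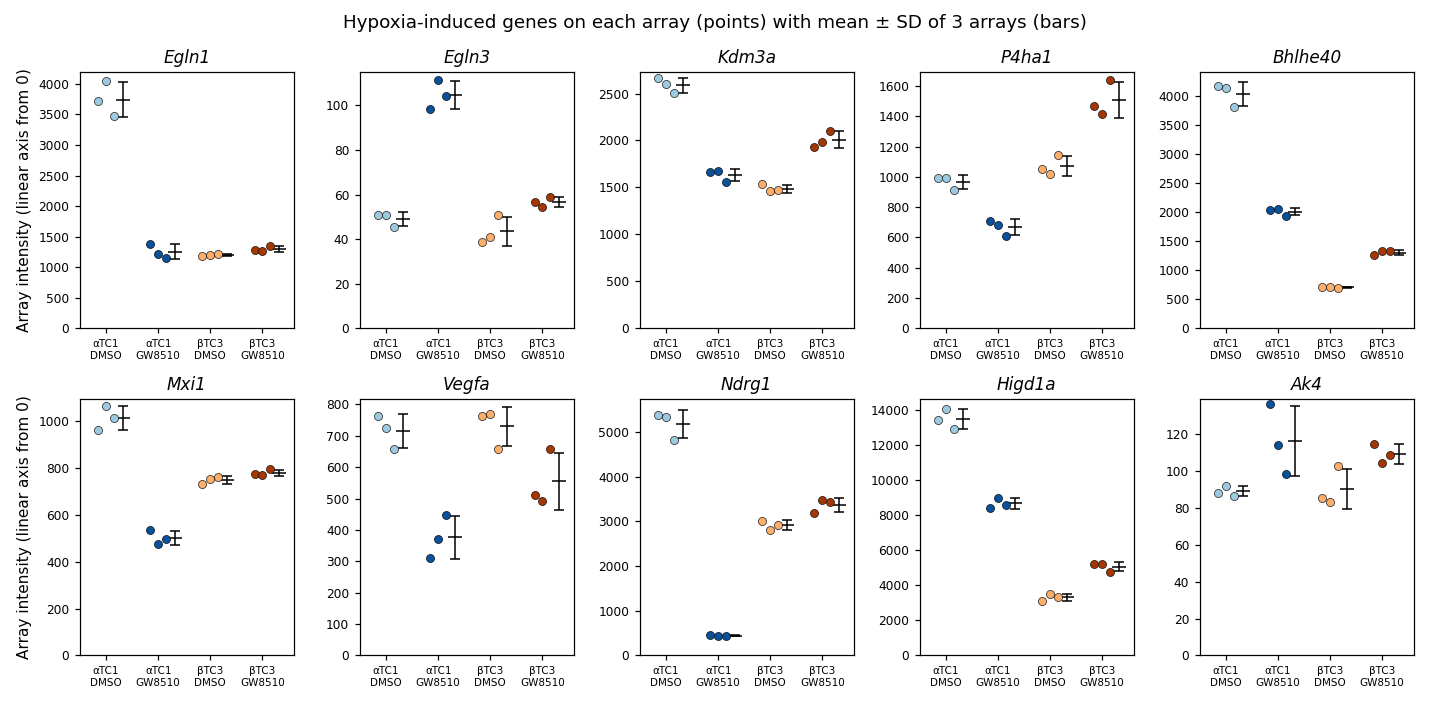
Intensity of each gene on the 12 arrays (linear axis from 0), read by the probe set with the highest mean, with points for arrays and bars for mean ± SD of 3 arrays in each group (αTC1 and βTC3, DMSO and GW8510). Mean Egln1 is 3745 with DMSO and 1249 with GW8510 in αTC1 and 1201 and 1297 in βTC3, while Bhlhe40 is lower with GW8510 in αTC1 and higher in βTC3.

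Among the oxygen sensors, Egln1 encodes PHD2, the main HIF prolyl hydroxylase of most cells. Its intensity in αTC1 was 3714, 4052 and 3469 with DMSO and 1386, 1211 and 1150.5 with GW8510. In βTC3 it was 1183, 1202 and 1218 with DMSO and 1273, 1269 and 1348 with GW8510. Only the αTC1 DMSO arrays stood high, and the GW8510 arrays of αTC1 overlapped those of both βTC3 groups. Mean intensity in αTC1 was 3.00-fold lower with GW8510 (log2 −1.59 ± 0.08, SE), and in βTC3 it differed by 1.08-fold (adjusted p = 0.299, limma). The second probe set of Egln1 gave another answer in βTC3. It read 515, 524 and 448 with DMSO and 663, 715 and 746 with GW8510, a rise of 1.43-fold (adjusted p = 0.0017 in limma over all probe sets). In αTC1 both probe sets were lower by similar amounts, at log2 −1.59 and −1.65.

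Egln3 encodes PHD3, a HIF prolyl hydroxylase that is itself among the most inducible by low oxygen. Unlike Egln1 it was dim in every group, and it was higher with GW8510 in both lines. The αTC1 arrays read 50.7, 50.9 and 45.4 with DMSO and 98.6, 111 and 104 with GW8510. Those of βTC3 read 38.6, 41.1 and 51.0 with DMSO and 56.7, 54.4 and 58.8 with GW8510. No GW8510 array overlapped a DMSO array of the same line, although 1 βTC3 DMSO array came close to the treated ones. The rise in βTC3 was 1.31-fold (log2 0.39 ± 0.10, adjusted p = 0.00794, limma), and the αTC1 means differed by 2.14-fold. By its dimmer probe set the same contrasts were 1.38-fold in αTC1 and 1.19-fold in βTC3, where the adjusted p over all probe sets was 0.0673.

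Kdm3a and P4ha1 encode enzymes of the same wider family, the dioxygenases that use oxygen, iron and 2-oxoglutarate. Kdm3a removes methyl groups from lysine 9 of histone H3. It read 2661, 2604 and 2501 in αTC1 with DMSO and 1664, 1676 and 1558 with GW8510, and in βTC3 it read 1534, 1458 and 1468 with DMSO and 1931, 1984 and 2105 with GW8510. The 4 groups did not overlap, with αTC1 DMSO highest and βTC3 DMSO lowest. Kdm3a was 1.59-fold lower in treated αTC1 and rose 1.35-fold in βTC3 (log2 0.43 ± 0.06, adjusted p = 8.99e-05, limma).

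P4ha1 is the catalytic subunit of the prolyl 4-hydroxylase of collagen, which lets the collagen helix fold. Its arrays read 994, 995 and 915 in αTC1 with DMSO against 712, 685 and 611 with GW8510. In βTC3 they read 1051, 1021 and 1148 with DMSO against 1465, 1412 and 1642 with GW8510. The untreated lines lay close together with βTC3 slightly above αTC1, and treatment moved them apart, since the readings went down in αTC1 and up in βTC3. P4ha1 was 1.45-fold lower in treated αTC1 and rose 1.40-fold in βTC3 (log2 0.49 ± 0.08, adjusted p = 0.000476, limma). Its other probe set read alike, at log2 −0.64 in αTC1 and 0.45 in βTC3 (adjusted p = 0.00157 over all probe sets, limma).

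Bhlhe40 and Mxi1 encode transcriptional repressors. Bhlhe40 (also DEC1) represses targets of the circadian clock and is a direct HIF target in many cells. It read 4158, 4132 and 3797 in αTC1 with DMSO and 2028, 2053 and 1932 with GW8510. In βTC3 it read 705, 707 and 691 with DMSO and 1253, 1320.3 and 1321 with GW8510. All 4 groups were apart, and each αTC1 array was above each βTC3 array. Bhlhe40 had the greatest rise of the 10 genes in βTC3 by the probe set with the highest mean, 1.85-fold (log2 0.89 ± 0.05, adjusted p = 3.17e-07, limma). In αTC1 it was 2.01-fold lower with GW8510.

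Mxi1 competes with MYC for its partner MAX and represses MYC target genes. It read 961, 1065 and 1014 in αTC1 with DMSO and 534, 475 and 499 with GW8510, which is 2.02-fold lower. In βTC3 it read 733, 754 and 762 with DMSO and 775, 772 and 795 with GW8510. The βTC3 groups lay next to each other without overlap, a difference of 1.04-fold that did not pass the test (log2 0.06 ± 0.06, adjusted p = 0.484, limma). The second probe set of Mxi1 was also lower in treated αTC1 (log2 −0.63) and overlapped between the βTC3 groups (log2 −0.06).

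Vegfa encodes the growth factor that draws blood vessels into islets, and it was the only gene of the 10 that fell in βTC3. In αTC1 it read 763, 726 and 658 with DMSO and 311, 370.4 and 449 with GW8510. In βTC3 it read 763, 770.3 and 659 with DMSO and 512, 494 and 659 with GW8510. The lines had similar levels with DMSO, and the treated arrays were widely spread in both, with 1 βTC3 GW8510 array just under the lowest DMSO array. The mean was 1.92-fold lower in treated αTC1 and 1.33-fold lower in βTC3 (log2 −0.41 ± 0.14, adjusted p = 0.0396, limma). That call was lost without any 1 of 6 arrays, 4 of them from βTC3, and the second probe set of Vegfa pointed the other way in βTC3 (log2 0.12, adjusted p = 0.296 over all probe sets). In αTC1 the second probe set was lower as well (log2 −0.33).

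Ndrg1 encodes a stress-responsive cytoplasmic protein that is strongly induced by hypoxia and by cell differentiation. It showed the greatest contrast of the 10 in αTC1, where the arrays read 5372, 5337 and 4819 with DMSO and 449, 446 and 437 with GW8510. In βTC3 they read 3020.4, 2818 and 2922 with DMSO and 3186, 3483 and 3434 with GW8510. The treated αTC1 arrays stood far below all others and close to each other. Ndrg1 was 11.6-fold lower in treated αTC1 (log2 −3.54 ± 0.06) and 1.15-fold higher in βTC3 (log2 0.21 ± 0.06, adjusted p = 0.0191, limma). All 5 probe sets of Ndrg1 were lower in treated αTC1, at log2 −3.54 to −2.50. In βTC3 they ran from −0.04 to 0.31, of which 2 passed the test over all probe sets and 2 overlapped between the groups. Without βTC3 DMSO replicate 2 or GW8510 replicate 2, or with the mean of all probe sets of the gene, Ndrg1 was no longer called in βTC3 (adjusted p of 0.0742, 0.0656 and 0.115, limma).

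Higd1a and Ak4 encode mitochondrial proteins. Higd1a, of the inner membrane, associates with respiratory chain complexes. Its arrays read 13407, 14077 and 12934 in αTC1 with DMSO and 8415, 9012 and 8612 with GW8510. In βTC3 they read 3101, 3484 and 3360.3 with DMSO and 5214, 5206 and 4751 with GW8510. All 4 groups were apart, in the same order as those of Bhlhe40, and αTC1 stayed the higher line after treatment. Higd1a was 1.55-fold lower in treated αTC1 and rose 1.53-fold in βTC3 (log2 0.61 ± 0.06, adjusted p = 1.87e-05, limma). Its other probe sets were lower by more in αTC1 (log2 −1.31 and −1.41) and rose in βTC3 by log2 0.39 and 0.42. The probe set with the highest mean reached 14077 of the 20000 that the scale allows.

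Ak4, an adenylate kinase of the mitochondrial matrix, was dim on all arrays, and its 4 probe sets disagreed. By the one with the highest mean, αTC1 arrays read 88.3, 92.1 and 86.6 with DMSO and 136, 114 and 98.5 with GW8510. The βTC3 arrays read 85.3, 83.1 and 103 with DMSO and 115, 104 and 109 with GW8510. The difference was 1.29-fold in αTC1 and 1.21-fold in βTC3, where it did not pass (adjusted p = 0.0743, limma). In αTC1 a second probe set was also higher (1.38-fold), while the groups overlapped by the other two (log2 0.06 and −0.31). The description of Ak4 as higher in treated αTC1 thus holds for 2 of its 4 probe sets.

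Those same 2 overlapping probe sets of Ak4 rose in βTC3. One read 90.1, 88.1 and 102 with DMSO and 249, 249 and 271 with GW8510, a rise of 2.74-fold (adjusted p = 2.67e-05 over all probe sets, limma). The other read 35.9, 36.1 and 40.8 with DMSO and 119.8, 97.4 and 70.7 with GW8510, which is 2.50-fold (adjusted p = 0.000172). In both, every treated βTC3 array was above every other array of the series. With the mean of all probe sets of the gene, Ak4 rose in βTC3 by log2 0.79 (adjusted p = 9.6e-05, limma), and the reading that did not pass is that of its brightest probe set alone. In βTC3 the 2.74-fold reading of Ak4 exceeded that of any other probe set of the 10 genes.

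**Figure D2:**
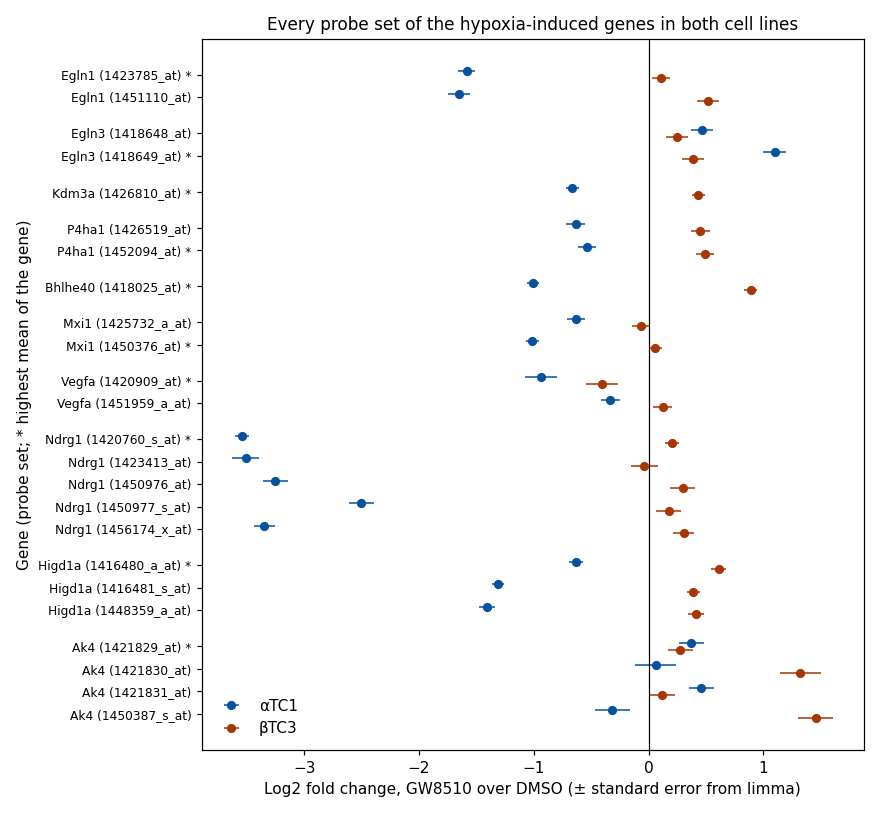
Log2 fold change of GW8510 over DMSO (horizontal axis, ± standard error from limma) for each of the 24 probe sets, in αTC1 (blue) and βTC3 (brown), with the probe set of highest mean starred. Both probe sets of Egln1 lie near −1.6 in αTC1, those of Ndrg1 lie between −3.54 and −2.50, and those of Ak4 disagree in both lines.

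Over the 24 probe sets, 18 were lower on all treated αTC1 arrays, 4 were higher and 2 overlapped, where 25% of all 22175 probe sets fitted were entirely lower and 24.1% entirely higher. On the βTC3 arrays 19 were entirely higher, 1 was lower and 4 overlapped, against 26.6% and 17.0% of all probe sets. By test, 13 rose in βTC3, 1 fell and 10 did not pass, against 18.0% and 13.4% of all probe sets called higher and lower. Probe sets of 1 gene share their target and are not independent readings. The 13 that rose were 1 each of Egln1, Egln3, Kdm3a and Bhlhe40, 2 each of P4ha1, Ndrg1 and Ak4, and 3 of Higd1a.

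The opposite reading in the lines was shared by 7 of the 10 genes: Egln1, Kdm3a, P4ha1, Bhlhe40, Mxi1, Ndrg1 and Higd1a were lower on every treated αTC1 array and higher on every treated βTC3 array than on the DMSO arrays of that line. Among all genes 4.18% had this pattern. The αTC1 readings entered the choice of the genes, so the difference between lines is given with no test. By the probe set with the highest mean, it was widest for Ndrg1, at 3.75 on the log2 scale (βTC3 minus αTC1). Bhlhe40 followed at 1.90 and Egln1 at 1.70, and the difference was 1.02 to 1.24 for the other 4. Other probe sets of Egln1 (−1.65 in αTC1 and 0.52 in βTC3) and Higd1a (−1.31 and 0.39, −1.41 and 0.42) lay further apart. Those of Mxi1 (−0.63 and −0.06) and Ndrg1 lay less far apart, so the order depends on the probe set. Of the 7, Egln1 and Mxi1 were not called in βTC3.

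Treatment changed which line had the higher level. Read by 1 probe set a gene, αTC1 had the higher mean in 7 of the 10 genes with DMSO, and with GW8510 in 4 (Egln3, Bhlhe40, Higd1a and Ak4). For Ak4 the treated arrays of the lines overlapped. By its other probe sets the treated means were 46.6, 31.4 and 98.2 in αTC1 against 256, 96.0 and 88.7 in βTC3, so the order depended on the probe set. For Bhlhe40 the αTC1 level was 5.74-fold that of βTC3 with DMSO and 1.54-fold with GW8510, and for Higd1a these ratios were 4.07 and 1.72. Egln1 went from 3.11-fold to 0.961-fold, with overlapping arrays in the treated lines. Kdm3a and Mxi1 changed order, from 1.74-fold and 1.35-fold with DMSO to 0.814-fold and 0.644-fold with GW8510. Ndrg1 went from 1.77-fold to 0.132-fold, which made the gap between the lines wider, and P4ha1 from 0.903-fold to 0.444-fold. Vegfa and Ak4 hardly differed between the untreated lines (0.980-fold and 0.989-fold), and their arrays overlapped. Of the 10 genes 4 had a narrower gap between the lines with GW8510, namely Egln1, Kdm3a, Bhlhe40 and Higd1a.

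**Figure D3:**
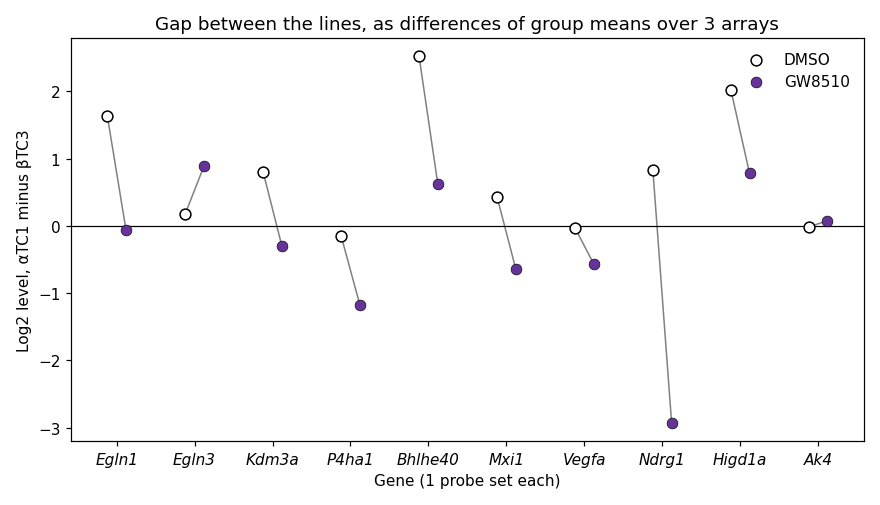
Difference in log2 level between αTC1 and βTC3 (vertical axis, group means over 3 arrays) with DMSO (open) and with GW8510 (filled) for each gene, read by 1 probe set. Bhlhe40 goes from 2.52 to 0.63 and Ndrg1 from 0.82 to −2.92. Only Egln3 and Ak4 move upward, Ak4 from −0.02 to 0.08 by a probe set with which others of the gene disagree.

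Across the 12 arrays the genes did not form 1 profile. Among the 7 with opposite readings, Pearson correlations of log2 intensity over the 21 pairs ran from −0.47 to 0.99 with a median of 0.57. Bhlhe40 and Higd1a were closest (0.99), with Mxi1 and Ndrg1 next (0.96). P4ha1 and Higd1a were lowest, at −0.47, although both were lower in treated αTC1 and higher in treated βTC3. Egln1 and Egln3 had a correlation of −0.31. The points share 4 groups of 3 arrays, so a correlation here mostly restates the order of the group means.

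The gene most like Bhlhe40 over the 12 arrays, among 3275 genes whose group means span at least 1 on the log2 scale, was Slc2a1, the glucose carrier of most cells (r = 0.996). Ppme1, which encodes a methylesterase of protein phosphatase 2A, was closest to Higd1a (0.998) and second for Bhlhe40 (0.995). Bnip3, a mitochondrial protein gene and HIF target, stood beside Kdm3a (0.982) together with the desaturase gene Scd1 (0.982). Egln1 was nearest to Kcne1 and Gadd45a (both 0.990), and Egln3 to Pmm1 (0.982) and F11r (0.974). Mxi1 was nearest to the stress-responsive genes Atf3 (0.975) and Mt1 (0.966), and Ndrg1 to the cholesterol transporter gene Abca1 (0.976) and Gbe1 (0.973), which encodes the glycogen branching enzyme. P4ha1 lay beside Septin6 (0.990) and Serpina1b (0.981), and Vegfa beside Plvap (0.958) and Rims2 (0.956). Ak4 had no close neighbour, the highest being Retsat at 0.817 and Lpar1 at 0.813.

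Other hypoxia-induced genes outside glycolysis, a list written from general knowledge without the 10, showed the same opposite directions in part. Of 51 measured, 25 fell and 8 rose in αTC1, where 21.2% of all genes fell and 20.2% rose. In βTC3 29 rose and 3 fell, where 19.7% of all genes rose and 14.3% fell. Both a fall in αTC1 and a rise in βTC3 were called for 17 of the 51 (33.3%), against 2.47% of all genes. The median log2 fold change was −0.16 in αTC1 and 0.34 in βTC3. These genes did not enter the choice of the 10. Their list was however chosen with earlier results of these data known, so these shares are no independent test of the pattern.

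Adm encodes adrenomedullin, a vasodilator peptide. Its mean went from 436 ± 53.1 (SD, n = 3) to 98.7 ± 25.4 in αTC1 and from 85.9 ± 6.73 to 142 ± 39.7 in βTC3. The changes were log2 −2.17 (adjusted p = 3.15e-06) and 0.69 (adjusted p = 0.0198), and the difference between lines was 2.86 (adjusted p = 1.61e-05, limma). Without βTC3 DMSO replicate 2 or 3 or GW8510 replicate 3, Adm was not called in βTC3 (adjusted p of 0.0661, 0.0536 and 0.0867). Selenbp1, which encodes a selenium-binding protein, fell in αTC1 from 4801 to 532 (log2 −3.18, adjusted p = 1.91e-08). In βTC3 it was near the floor at 37.4 with DMSO and 59.3 with GW8510 (log2 0.63, adjusted p = 0.0098), and its other probe set read −0.20 there. Ppp1r3c, a glycogen-targeting subunit of protein phosphatase 1, fell in αTC1 from 622 to 90.3 (log2 −2.79, adjusted p = 2.28e-08). In βTC3 Ppp1r3c was near the floor too, at 34.6 with DMSO and 46.1 with GW8510 (log2 0.39, adjusted p = 0.0544). Its other probe set read −0.80 and 0.09. For all 3 the difference between lines passed, at 2.86, 3.80 and 3.18 on the log2 scale, as it did in either direction for 16.4% (greater in βTC3) and 12.0% (smaller) of all genes. Hmox1, the heme oxygenase that answers to oxidative stress as well as hypoxia, rose in both lines, from 559.7 to 2559.6 in αTC1 (log2 2.19, adjusted p = 2.1e-09) and from 341 to 752 in βTC3 (log2 1.14, adjusted p = 1.54e-06).

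Of the genes with large opposite changes, 3 were picked out after their values were seen. Ero1a, the oxidase that forms disulfide bonds in the endoplasmic reticulum, fell in αTC1 by log2 1.54 (adjusted p = 1.62e-08) and rose in βTC3 by log2 1.86 (adjusted p = 1.73e-08, limma). Bnip3 fell from 11465 to 3660.4 in αTC1 (log2 −1.65, adjusted p = 6.31e-08) and rose from 2809 to 6527 in βTC3 (log2 1.22, adjusted p = 2.49e-06). Pdk1, which encodes a kinase that shuts off pyruvate dehydrogenase, changed by log2 −1.42 and 1.07 (adjusted p of 9.61e-07 and 2.34e-05). Anxa2, an annexin gene marked with these in the plot of αTC1 against βTC3, changed by log2 −0.20 and 2.10, but by −0.21 to 0.23 in αTC1 and 0.05 to 0.49 in βTC3 by its other probe sets.

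**Figure D4:**
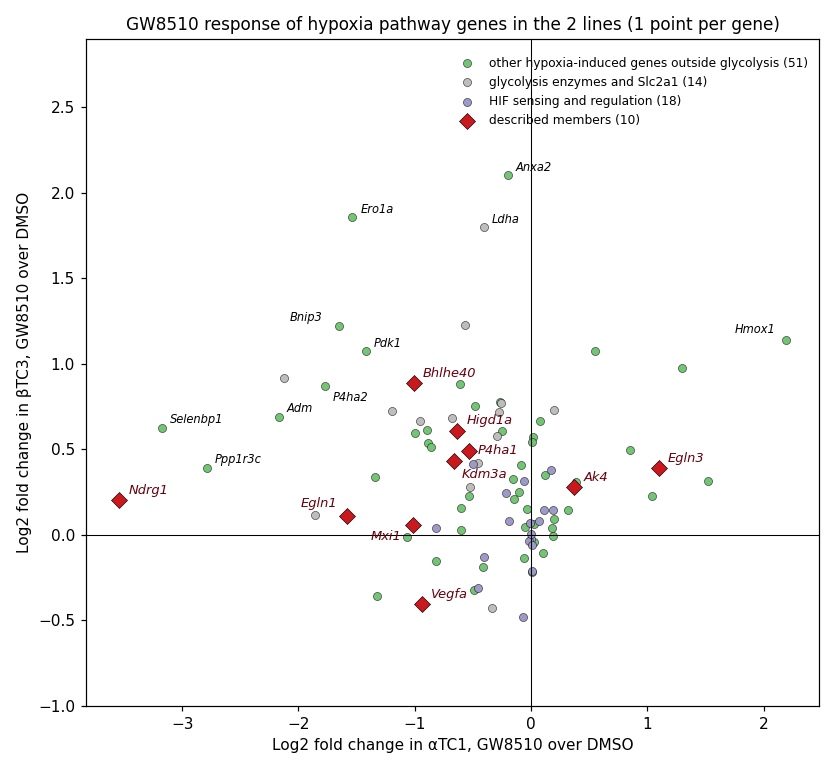
Log2 fold change of GW8510 over DMSO in αTC1 (horizontal) against βTC3 (vertical), 1 point per gene, for the 10 genes described (diamonds), 51 other hypoxia-induced genes (green), 14 glycolysis genes (grey) and 18 genes of HIF sensing and regulation (violet). Ndrg1 (−3.54, 0.21) and Selenbp1 lie far to the left and Hmox1 (2.19, 1.14) far to the right, while most of the HIF regulators lie near the origin.

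The glycolysis genes, taken for comparison, moved more uniformly. Of 14 measured, 13 fell (92.9%, against 21.2% of all genes) and 1 (Hk1) rose (7.14%, against 20.2%) in αTC1. In βTC3 12 rose (85.7%, against 19.7%), 1 (Pfkm) fell (7.14%, against 14.3%) and 1 (Hk2) did not pass. Their median log2 fold change was −0.49 in αTC1 and 0.70 in βTC3. Both a fall in αTC1 and a rise in βTC3 were called for 11 of the 14 (78.6%, against 2.47%). Aldoc, an aldolase, went from 396 to 91.3 in αTC1 and from 553 to 1043.5 in βTC3 (log2 −2.13 and 0.92, adjusted p of 2.04e-09 and 5.4e-06). Its second probe set, near the lower bound, showed log2 0.05 in αTC1. Ldha, the lactate dehydrogenase subunit, fell by log2 0.40 in αTC1 (adjusted p = 0.0224) and rose by log2 1.80 in βTC3 (adjusted p = 1.07e-06). In αTC1 the call for Ldha was lost without DMSO replicate 1 or 2 or GW8510 replicate 2 or 3 (adjusted p of 0.0555, 0.0672, 0.0513 and 0.0713, limma). Hk2, a hexokinase that is bright in αTC1 and dim in βTC3, fell by log2 1.86 in αTC1 (adjusted p = 1.25e-05) and differed by 0.12 in βTC3 (adjusted p = 0.698). Pfkp, a phosphofructokinase, changed by log2 −0.57 and 1.23 (adjusted p of 2.12e-05 and 1.51e-07).

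For the machinery that senses oxygen and controls HIF, the counts within each line were nearer to those over all genes, except for rises in αTC1. Of 18 genes measured, 5 fell (27.8%, against 21.2% of all genes), 1 rose (5.56%, against 20.2%) and 12 did not pass in αTC1. In βTC3, 5 rose (27.8%, against 19.7%), 3 fell (16.7%, against 14.3%) and 10 did not pass. Both a fall in αTC1 and a rise in βTC3 were called for 2 (Vhl and Siah2, 11.1%, against 2.47% of all genes). Hif1a averaged 4639 ± 384 with DMSO and 4076 ± 328 with GW8510 in αTC1, and 3693.5 ± 319 and 3902 ± 125 in βTC3 (SD, n = 3). Neither difference passed (log2 −0.19 and 0.08, adjusted p of 0.101 and 0.492, limma), but the αTC1 result of Hif1a depended on the setting. It passed as a fall in 6 of 22 alternatives, with log2 −0.46 to −0.15 and adjusted p of 0.000387 to 0.277 over all of them. Among the 6 were a second probe set of Hif1a (−0.46), array weights (−0.23, adjusted p = 0.00726) and the omission of DMSO replicate 3 or GW8510 replicate 3 in αTC1 (adjusted p of 0.0366 and 0.0393). Epas1 and Arnt, dim at 47.4 to 69.5, did not pass in either line either (log2 0.07 to 0.15, adjusted p of 0.492 to 0.624). HIF activity depends on protein stability, which these arrays do not read.

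Among the regulators, Vhl fell by log2 0.22 in αTC1 (adjusted p = 0.0319) and rose by log2 0.24 in βTC3 (adjusted p = 0.0237), with a difference between lines of 0.46 (adjusted p = 0.00567, limma). The αTC1 call for Vhl was lost without DMSO replicate 1 or 2 or GW8510 replicate 2 or 3 (adjusted p of 0.129, 0.0591, 0.118 and 0.0827), and the βTC3 call without DMSO replicate 1 (0.101) or GW8510 replicate 3 (0.0789). Egln2, the remaining HIF prolyl hydroxylase, rose in βTC3 from 814 to 1011.5 (log2 0.31, adjusted p = 0.00214) and had log2 −0.06 in αTC1 (adjusted p = 0.504). Siah2, a ubiquitin ligase that targets the prolyl hydroxylases, fell by log2 0.50 in αTC1 (adjusted p = 0.000183) and rose by log2 0.42 in βTC3 (adjusted p = 0.00114), where the mean of all its probe sets read 0.17 (adjusted p = 0.093). Cited2, which competes with HIF for its coactivator, fell in αTC1 from 1546 to 878 (log2 −0.81, adjusted p = 8.88e-07) and had log2 0.04 in βTC3 (adjusted p = 0.686). The other probe set of Cited2 read −0.55 in αTC1 and 0.37 in βTC3. In βTC3 Cited2 passed as a rise in 1 of 22 alternatives (adjusted p = 0.0262, limma). The coactivator gene Crebbp fell in βTC3 (log2 −0.48, adjusted p = 0.000619) and Pias1, a SUMO ligase, fell in both lines (log2 −0.46 and −0.31, adjusted p of 0.000489 and 0.01). With the βTC3 arrays fitted alone Pias1 was not called there (adjusted p = 0.0553), while its other probe sets read −0.58 and −0.56.

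The wider list around Kdm3a and P4ha1 was split. It held 23 other genes of hydroxylases, demethylases and their partner proteins. In αTC1 11 fell (47.8%, against 21.2% of all genes) and 1 rose (4.35%, against 20.2%). In βTC3 11 rose (47.8%, against 19.7%) and 4 fell (17.4%, against 14.3%). Both a fall in αTC1 and a rise in βTC3 were called for 5 (21.7%, against 2.47%), namely P4ha2, P4hb, Plod1, Plod2 and Jmjd6. All of these but P4hb were already counted among the other hypoxia-induced genes above, so this share is no separate result. P4ha2, the second catalytic subunit beside P4ha1, went from 1956 to 575 in αTC1 and from 807 to 1479.6 in βTC3 (log2 −1.77 and 0.87, adjusted p of 1.93e-08 and 1.7e-05, limma). The lysyl hydroxylase gene Plod1 changed by log2 −0.89 and 0.61 (adjusted p of 1.69e-07 and 9.7e-06). For Plod2 the changes were −0.61 and 0.88 (adjusted p of 6.25e-06 and 9.76e-07). P3h4, which works with collagen-modifying enzymes, fell in both lines (log2 −1.65 and −0.63, adjusted p of 9.3e-09 and 5.69e-05).

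The relatives of the other genes followed no single direction. Of 9 further VEGF ligands and receptors, 3 rose (33.3%, against 20.2% of all genes) and 2 fell (22.2%, against 21.2%) in αTC1, and 1 rose in βTC3 (11.1%, against 19.7%). Vegfc fell in αTC1 (log2 −1.06, adjusted p = 2e-05), Vegfd and Pgf rose there (log2 0.62 for both, adjusted p of 0.000239 and 5.9e-05), and the coreceptor Nrp2 rose in both lines (log2 0.47 and 1.20, adjusted p of 0.00502 and 8.99e-06). Of 12 genes of the MYC network around Mxi1, 5 fell (41.7%, against 21.2%) and 3 rose (25%, against 20.2%) in αTC1, and 3 fell in βTC3 (25%, against 14.3%), where the other 9 did not pass. Mycn and Mxd3 fell in αTC1 by log2 1.65 and 1.30 (adjusted p of 1.43e-07 and 1.49e-08), Mlxipl fell by log2 1.14 (adjusted p = 4.42e-06), and Mxd4 rose by log2 0.91 (adjusted p = 1.16e-06). The 2 other probe sets of Mycn read only −0.14 and −0.02 there, and those of Mxd3 −0.80 and −0.29. In βTC3 Mxd3 fell by log2 0.65 (adjusted p = 1.13e-05), and the fall of Mlxipl (log2 −0.37, adjusted p = 0.0215) was lost without DMSO replicate 1 or 3 or GW8510 replicate 1 or 2 (adjusted p of 0.0721, 0.0678, 0.0702 and 0.0813).

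Bhlhe40 belongs with the circadian clock. Of 16 further clock genes, 8 fell (50%, against 21.2% of all genes) and 1 rose (6.25%, against 20.2%) in αTC1. In βTC3, 3 rose and 3 fell (18.8% each), which is close to the 19.7% and 14.3% of all genes. Both a fall in αTC1 and a rise in βTC3 were called for 2 (Arntl and Cry2, 12.5%, against 2.47%). Arntl, a core activator of the clock, fell in αTC1 by log2 1.01 (adjusted p = 7.07e-07) and rose in βTC3 by log2 0.30 (adjusted p = 0.0105, limma). Dbp and Nr1d2, output and repressor genes of the clock, fell in both lines, Dbp by log2 1.09 and 0.68 (adjusted p of 3.84e-07 and 4.43e-05) and Nr1d2 by log2 1.15 and 0.88 (adjusted p of 9.08e-09 and 2.83e-07). The other probe set of Nr1d2 read only −0.25 and −0.26, and the mean of its probe sets −0.70 and −0.57. Rora fell in αTC1 (log2 −1.07, adjusted p = 4.24e-07) and had log2 −0.01 in βTC3 (adjusted p = 0.911).

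Of 3 other adenylate kinases measured, 2 rose and 1 fell in αTC1, where 20.2% of all genes rose and 21.2% fell. The cytosolic adenylate kinase Ak1 rose in αTC1 from 526 to 1813 (log2 1.79, adjusted p = 7.43e-09) and fell in βTC3 from 228 to 149 (log2 −0.62, adjusted p = 9.56e-05), the reverse of the common pattern, although its other probe set read 0.34 and 0.19. Ak3, the other matrix enzyme, rose in both lines (log2 1.48 and 0.84, adjusted p of 1.43e-08 and 4.27e-06), and Ak5 fell in αTC1 (log2 −0.44, adjusted p = 0.00374). Ndrg4 rose in αTC1 from 4816 to 10302 (log2 1.10, adjusted p = 1.08e-08), where Ndrg1 was lower, and Ndrg3 fell in βTC3 (log2 −0.43, adjusted p = 0.000127). Higd2a, a relative of Higd1a, rose in both lines (log2 0.70 and 0.37, adjusted p of 1.85e-07 and 7.69e-05, limma).

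βTC3 GW8510 replicate 3, the array with the highest median, did not decide the βTC3 calls of the 10 genes. Without it 6 were called higher and 1 lower, as with all arrays, while over all genes the calls went from 2417 higher and 1757 lower to 1948 and 2005. The number of arrays, 3 a group, limits the precision of every value given.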

How the data were processed

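The submitters' notes name RMA, with no version given. The deposited intensities are linear and bounded at 20 and 20000, and the authors are assumed to have set these bounds. They were converted to log2 as they stood, without a pseudocount. Of 22690 probe sets, 20380 carried 1 gene symbol. Each of 12255 genes was read by its brightest probe set, judged by the mean of 12 arrays.

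All 4 groups were fitted together in limma 3.58.1 (R 4.3.3), with Benjamini-Hochberg adjustment over all genes. A second fit covered 22175 probe sets. The fit had 8 residual and 3.52 prior degrees of freedom and a median standard error of 0.08 on the log2 scale. It was tested on simulated data.

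The members and the lists were chosen with earlier results of these data known. Named genes are the 10 members, up to 4 genes of each list with the largest passing change, fixed HIF genes (Hif1an was not measured here) and 2 nearest genes per member. Genes named for belonging to a small count, and those marked as such, were chosen after their values were seen. Settings varied were the normalization, the probe set, a filter on the dimmest 25% of genes, a pseudocount of 16, the arrays fitted, the variance model, array weights, a block for replicate number, and 1 array omitted at a time.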

Additional observations from a re-analysis of the deposited data

Results flagged for a closer look

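Every treated αTC1 array was lower and every treated βTC3 array higher than the DMSO arrays of its line for 7 of the 10 genes, each read by its brightest probe set. Of these, Egln1 and Mxi1 were not called in βTC3, where a second probe set of Mxi1 and some of Ndrg1 overlapped between the groups. The difference between lines (βTC3 minus αTC1, log2) was 1.70 for Egln1, 1.10 for Kdm3a, 1.07 for Mxi1, 1.90 for Bhlhe40, 1.24 for Higd1a, 1.02 for P4ha1 and 3.75 for Ndrg1. It was not tested, because the αTC1 values helped to choose these genes.

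For genes of the lists, the response differed between lines by a test of the difference itself in limma (adjusted p under 0.05). Among HIF regulators the difference was 0.46 for Vhl, 0.37 for Egln2, 0.85 for Cited2, 0.92 for Siah2 and −0.41 for Crebbp, whose call was lost with a replicate block (adjusted p = 0.0524). Among other hypoxia-induced genes it was 2.86 for Adm, 3.18 for Ppp1r3c, 3.80 for Selenbp1 and −1.06 for Hmox1. Ppp1r3c and Selenbp1 were near the lower bound in βTC3. The glycolysis genes gave 1.98 for Hk2, 1.80 for Pfkp, 3.04 for Aldoc and 2.20 for Ldha. In the list around Kdm3a and P4ha1 it was 2.64 for P4ha2, 1.51 for Plod1, 1.5 for Plod2 and 1.02 for P3h4. The VEGF genes gave 0.88 for Vegfc, −0.68 for Vegfd, −0.50 for Pgf and 0.73 for Nrp2. In βTC3 Vegfc averaged 30.0 with DMSO and 26.4 with GW8510, near the lower bound. In the MYC network it was 1.39 for Mycn, 0.65 for Mxd3, −0.79 for Mxd4 and 0.77 for Mlxipl. Clock genes gave 1.31 for Arntl, 0.42 for Dbp, 0.27 for Nr1d2 and 1.05 for Rora. For Nr1d2 the call was lost with the mean of its probe sets (0.13, adjusted p = 0.513) and with a replicate block (adjusted p = 0.0615). Relatives of Ak4, Ndrg1 and Higd1a gave −2.41 for Ak1, −0.63 for Ak3, −0.47 for Ndrg3, −1.04 for Ndrg4 and −0.33 for Higd2a. With probe sets without a suffix the difference for Ak1 was not called (−0.15, adjusted p = 0.491).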

How the results depend on the processing

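Among the 10 members, 20 log2 fold changes (1 per line) were recomputed under the alternatives, and 10 kept their direction and their side of the threshold or their range in all of them. The number of members called higher in βTC3 lay between 5 and 7 in every alternative. The number called lower, 1 (Vegfa), was 0 with the mean of all probe sets of a gene and with a replicate block, and 0 to 1 when each array was left out in turn (0 without αTC1 DMSO or GW8510 replicate 2, βTC3 DMSO replicate 1 or 2, or βTC3 GW8510 replicate 1 or 2, where the adjusted p for Vegfa was 0.0529 to 0.128). Ndrg1 was not called in βTC3 with another quantile normalization (adjusted p = 0.0923, limma) or with probe sets without a suffix (0.0596). With the mean of all probe sets Egln1 was called in βTC3 (log2 0.31, adjusted p = 0.00778), and Mxi1 turned to −0.0028. Ak4 was called there with array weights (0.0108) and without αTC1 GW8510 replicate 1 (0.0286) or 3 (0.0374) or βTC3 DMSO replicate 3 (0.0259). In αTC1 the mean of all probe sets gave log2 0.78 for Egln3, −1.12 for Higd1a, −3.23 for Ndrg1 and −0.64 for Vegfa. Over all genes, calls of a difference that was lower in βTC3 went from 1475 to 2280 with array weights.

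Deviations of same-numbered arrays from their group means had r of −0.1267 to 0.0761, and those of other pairs −0.0958 to 0.0757. Deviations within a group of 3 arrays are tied to each other, so this cannot show whether the replicate numbers pair them. The main fit used no pairing. A replicate block gave 2294 genes higher and 1557 lower in βTC3, with 5 members higher and 0 lower, since Ndrg1 (adjusted p = 0.0501) and Vegfa (0.0894) were no longer called.

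Of 2420 values for other named genes, 2351 kept direction and side, 29 lost and 20 gained a call, and 20 turned sign. With probe sets without a suffix, Aldoc went to 0.0524 in αTC1 and −0.0524 in the difference between lines, Selenbp1 to −0.2004, Ak1 to 0.1891, Hif1a to −0.0343 and Arnt to −0.1476 in βTC3, and Arnt to −0.1013 in αTC1. Quantile normalization turned the βTC3 values of Epas1 to −0.0053, Cited2 to −0.0231 and Ndrg4 to −0.0107. Array weights turned Arnt to −0.0612 and Egln2 to 0.0313 in αTC1, and the mean of all probe sets turned Arnt to −0.0003 in βTC3. With each array left out in turn, the αTC1 values ran from −0.0009 to 0.1251 for Epas1 and −0.0384 to 0.2146 for Arnt (lowest without αTC1 GW8510 replicate 1). The βTC3 values ran from −0.1592 to 0.3441 for Hk2, −0.1507 to 0.0331 for Vegfd (0.0077 without βTC3 DMSO replicate 1) and −0.0589 to 0.0309 for Rora (0.0047 without βTC3 GW8510 replicate 1). The cause of these changes was not tested. Signals near the lower bound of 20, as for Egln3, Ak4, Epas1 and Arnt, may understate fold changes, which was not tested.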

Other observations

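Among the 51 other hypoxia-induced genes, 6 rose in both lines instead of moving in opposite directions, and they were picked out after their values were seen. Besides Hmox1 they were Plin2, which coats lipid droplets (log2 1.30 in αTC1 and 0.98 in βTC3), Tfrc, the transferrin receptor of iron uptake (1.04 and 0.22), Tgfb3 (0.85 and 0.50), Klf6 (0.55 and 1.08) and Car12 (0.39 and 0.31). Adjusted p-values from limma were 2.38e-08 and 9.29e-07 for Plin2, 1.26e-08 and 0.00405 for Tfrc, and at most 0.03 for the others. Group means of Car12 were near the lower bound, at 33.8 to 45.8. Other probe sets of Tfrc read 1.19 to 1.30 in αTC1 and 0.32 to 1.06 in βTC3. A further 3 genes fell in both lines, Zfp292 (log2 −1.32 and −0.35), Pam (−0.49 and −0.32) and Pnrc1 (−0.42 and −0.19). Sdc4, which encodes a heparan sulfate proteoglycan, rose in αTC1 from 781 to 2248 (log2 1.52, adjusted p = 0.000242) and was dim in βTC3.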
